A study of Mus musculus with 12 samples.

Results

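Ribosome biogenesis genes encode the proteins that transcribe, modify, cut and fold ribosomal RNA and assemble it into the subunits of the ribosome. They were read here in mouse kidneys after ischaemia-reperfusion injury (IRI), a model in which blood flow to the kidney is blocked for a time and let back. The genes were chosen by symbol, with earlier results of these data known: symbols made of Nop, Rrp or Utp and a number, of Polr1 and a letter, Noc2l, Noc3l and Noc4l, and a set of single names such as Fbl, Ncl, Npm1, Dkc1, Pes1 and Nob1. The rule found 52 of the 13124 genes of the count table. By role they were 5 subunits of RNA polymerase I, 3 proteins of box C/D and 4 of box H/ACA small nucleolar ribonucleoproteins (snoRNPs), 4 abundant nucleolar proteins, 22 factors of the small subunit and 14 of the large subunit.

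All 12 kidneys came from male C57BL/6 mice, with no genetic modification named in the labels, and were taken 24 h after surgery and flushed with saline before RNA was prepared from all their cells. Of the 4 groups of 3 kidneys, the anti-G-CSFR group (kidneys 7 to 9) had IRI after the antibody VR81 against the receptor of granulocyte colony-stimulating factor. The anti-C5 group (kidneys 10 to 12) had IRI after the antibody BB5.1 against complement component C5. The isotype group (kidneys 4 to 6) had IRI after an isotype control antibody, and the sham group (kidneys 1 to 3) had a sham operation and no antibody. Antibodies were given 24 h before IRI, so isotype against sham joins the injury with the injection of a control antibody. Age is not given in the sources used here, and whole tissue was read, so fewer cells of a type and less RNA per cell cannot be told apart.

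Ribosomes are built mainly in the nucleolus. There RNA polymerase I transcribes a long precursor, box C/D snoRNPs guide its methylation and box H/ACA snoRNPs guide the conversion of uridine to pseudouridine. The small subunit processome, a large particle that forms on the growing precursor, folds and cuts the small subunit part, and other factors mature the large subunit part. In kidney, tubule cells that survive ischaemia lose features of their mature state and divide to restore the tubule. Most of the roles given here for single proteins were worked out in budding yeast or in human cells.

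Between 13200930 and 16324215 counts were obtained per kidney. Levels are given in CPM, read counts divided by a library size scaled with TMM factors, and are compared between kidneys for a gene. They are not compared between genes, except to pick genes to name by their mean CPM in each role. Every one of the 52 genes had at least 2.01 CPM in each of the 12 kidneys, so none entered the table through a single group. Kidney markers were present: 10 of 10 proximal tubule genes were measured, and their summed level was 27416 to 47608 CPM in anti-G-CSFR kidneys, 27750 to 49372 in anti-C5 kidneys, 10505 to 16942 in isotype kidneys and 33927 to 38509 in sham kidneys. Kidneys 9 and 11 stood apart from the other kidneys of their groups in genes of tubule injury. Counts and medians of the 52 genes in the comparisons with isotype kidneys are given with and without them. Counts of the marker and pathway lists include them.

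Promoters were searched for the E-box CACGTG, a motif bound by MYC and its partner MAX, because the 52 genes include many that MYC is known to activate and because most of them moved together. The RefSeq promoter table (GRCm38.p6, 250 bases before to 50 after the start) held 51 promoters of 43 of the 52 genes. CACGTG was found in 10 of these 43 genes (23.3%), against 11.7% of 10428 genes of the count table and 8.09% of 27025 genes of the whole promoter table. The 10 were Imp4, Nop2, Pes1, Rrp7a, Utp14b, Utp18, Utp20, Utp25, Utp4 and Wdr43. TATAAA was found in 6.98% of the 43 genes, 9.1% of the genes of the count table and 15.7% of all. Both strands were searched, and the letters of these motifs cannot overlap each other. A match is a run of letters and not a measured binding site. The promoters below are those of the 5 genes with CACGTG that had the smallest p in isotype against sham, 5′ to 3′ on the strand of the gene, with the E-box in capitals.
Rrp7a: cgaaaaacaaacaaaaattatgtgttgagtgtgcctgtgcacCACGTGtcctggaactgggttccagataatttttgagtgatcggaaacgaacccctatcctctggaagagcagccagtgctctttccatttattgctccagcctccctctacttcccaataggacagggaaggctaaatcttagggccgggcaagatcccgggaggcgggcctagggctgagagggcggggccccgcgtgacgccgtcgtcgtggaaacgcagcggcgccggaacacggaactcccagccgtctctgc
Utp4: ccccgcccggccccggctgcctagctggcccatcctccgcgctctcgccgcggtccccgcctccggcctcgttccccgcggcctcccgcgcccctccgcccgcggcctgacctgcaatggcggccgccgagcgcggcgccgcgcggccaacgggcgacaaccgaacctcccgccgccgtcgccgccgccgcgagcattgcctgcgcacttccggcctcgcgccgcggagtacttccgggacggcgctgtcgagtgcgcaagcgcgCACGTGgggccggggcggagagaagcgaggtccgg
Pes1: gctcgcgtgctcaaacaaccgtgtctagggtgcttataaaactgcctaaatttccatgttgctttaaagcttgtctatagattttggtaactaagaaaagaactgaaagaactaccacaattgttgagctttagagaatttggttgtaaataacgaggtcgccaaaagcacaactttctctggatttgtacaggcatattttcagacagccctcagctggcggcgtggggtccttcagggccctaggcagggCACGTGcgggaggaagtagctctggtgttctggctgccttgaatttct
Wdr43: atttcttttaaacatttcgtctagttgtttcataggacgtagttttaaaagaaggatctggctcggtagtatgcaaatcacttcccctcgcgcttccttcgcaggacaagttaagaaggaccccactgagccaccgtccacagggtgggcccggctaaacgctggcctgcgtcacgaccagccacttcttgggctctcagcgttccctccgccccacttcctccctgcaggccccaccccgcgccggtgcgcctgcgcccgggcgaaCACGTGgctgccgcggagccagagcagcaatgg
Utp18: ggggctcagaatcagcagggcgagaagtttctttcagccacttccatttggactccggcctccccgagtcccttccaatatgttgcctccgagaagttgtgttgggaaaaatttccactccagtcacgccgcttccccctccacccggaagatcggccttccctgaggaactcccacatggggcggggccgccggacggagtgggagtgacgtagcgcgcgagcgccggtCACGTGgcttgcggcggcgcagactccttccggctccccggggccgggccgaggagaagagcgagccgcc
The E-box of Rrp7a began 208 bases before the start (chr15:83122752-83123051, minus strand) and that of Utp18 20 bases before it (chr11:93885717-93886016, minus strand). Those of Pes1 (chr11:3963725-3964024, plus strand), Utp4 (chr8:106893390-106893689, plus strand) and Wdr43 (chr17:71615965-71616264, plus strand) began 3, 16 and 18 bases after it, counting the start as base 1. By the gene positions given below, which come from another annotation, Wdr43 starts at 71615895. Its whole promoter window lies after that start.

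Isotype kidneys were compared with sham kidneys to ask what IRI did to these genes. Of the 52, 46 rose, 2 fell and 4 did not pass the test (edgeR quasi-likelihood test, Benjamini-Hochberg adjusted p below 0.05 over 13124 genes). Over all genes 32.1% rose and 30.7% fell, against 88.5% and 3.85% of the ribosome biogenesis genes. Their log2 changes ran from −0.37 to 1.70 with a median of 0.80, where the median of all genes was 0.03. In 17 genes the rise was over 2-fold. With library totals alone as the scaling 47 rose, against 42.6% of all genes, and 0 fell, the median of all genes moved to 0.23, and 64.3% of all called genes were higher in place of 51.0%, and each direction given here is that under TMM scaling. The 3 isotype kidneys all lay above the 3 sham kidneys in 46 of the 52 genes, against 35.5% of all genes, and all below them in 2, against 33.7% of all genes. In 40 genes the 3 isotype kidneys lay above all 9 other kidneys, against 26.4% of all genes.

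**Figure D1:**
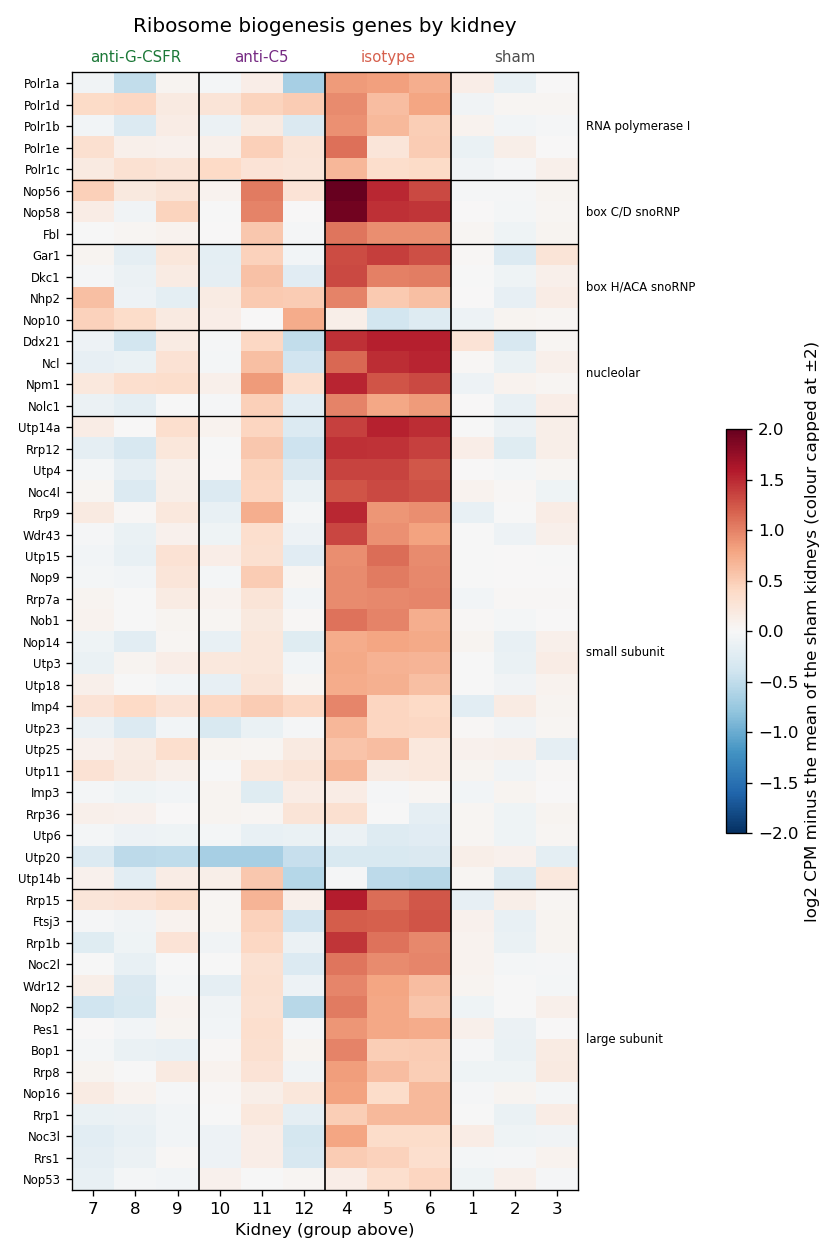
Level of each of the 52 ribosome biogenesis genes (rows, by role) in each of the 12 kidneys (columns, by group), as log2 CPM minus the mean of the 3 sham kidneys, with the colour capped at 2 in either direction. The 3 isotype kidneys are red in most rows, with kidney medians of 0.72 to 0.96, while the antibody kidneys are pale, apart from kidney 11 with a median of 0.32.

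The RNA polymerase I subunits found by the rule rose in 5 of 5, with a median log2 change of 0.70. Further subunits under older symbols are given below, and Znrd1 among them did not pass the test. Polr1d (chromosome 5, 147077050 to 147111597 on GRCm38, protein-coding) encodes a subunit that RNA polymerase I shares with RNA polymerase III. In order of kidney number, Polr1d stood at 89.6, 92 and 78 CPM in anti-G-CSFR kidneys, 82.2, 93.7 and 98.1 CPM in anti-C5 kidneys, 133, 105 and 119 CPM in isotype kidneys and 65.4, 70.9 and 70.8 CPM in sham kidneys. Every isotype kidney was above every sham kidney, and the 6 antibody kidneys lay between them. Its log2 change in isotype kidneys over sham kidneys was 0.79 ± 0.109 (SE, edgeR adjusted p = 8.73e-05). Polr1c (chromosome 17, 46243920 to 46248054), the partner of Polr1d in both polymerases, showed a smaller difference. The levels of Polr1c were 39, 42.8 and 41.4 CPM in anti-G-CSFR kidneys, 45.4, 41.7 and 40.7 CPM in anti-C5 kidneys, 54.9, 44 and 45.2 CPM in isotype kidneys and 32.6, 33.9 and 37 CPM in sham kidneys. Isotype over sham gave 0.48 ± 0.102 (SE, edgeR adjusted p = 0.00159). The catalytic subunits Polr1a and Polr1b rose by 0.80 and 0.70 on the log2 scale. Polr1e, the counterpart of yeast Rpa49, rose by 0.67, and by 0.38 without kidney 4, which held 27.6 CPM against 15.1 and 18.2 in the other isotype kidneys.

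Box C/D genes rose the most of any role by median, at 1.63 over 3 of 3 genes. Nop58 (chromosome 1, 59684971 to 59719044) and Nop56 (chromosome 2, 130274430 to 130279313) form the core of these particles together with the methyltransferase fibrillarin, encoded by Fbl. For Nop58 the values were 32, 27.4 and 39.3 CPM in anti-G-CSFR kidneys, 28.8, 57.9 and 29 CPM in anti-C5 kidneys, 110, 79.9 and 78.4 CPM in isotype kidneys and 29, 28.2 and 29.7 CPM in sham kidneys. Nop56 measured 30.8, 25.4 and 26.4 CPM in anti-G-CSFR kidneys, 23.1, 45.3 and 26.7 CPM in anti-C5 kidneys, 96.5, 62.9 and 55.1 CPM in isotype kidneys and 21.6, 21.5 and 22.9 CPM in sham kidneys. In both genes the isotype kidneys were above the other 9, kidney 4 was the highest of all 12 and kidney 11 was the highest of the antibody kidneys. The log2 change of Nop58 in isotype over sham was 1.63 ± 0.251 (SE, edgeR adjusted p = 0.000182). That of Nop56 was 1.70 ± 0.25 (SE, edgeR adjusted p = 0.00013). Fbl rose by 0.98 on the log2 scale, to 52.8 ± 2.98 CPM in isotype kidneys, against 26.8 ± 1.46 in sham kidneys (SD, n = 3 each).

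The box H/ACA genes did not move as 1 group. Dkc1, which encodes the pseudouridine synthase dyskerin, and Gar1, its partner, rose by 1.13 and 1.33 on the log2 scale. Gar1 had 16.9 to 18 CPM in isotype kidneys, against 5.64 to 8.15 in sham kidneys. Nhp2 (chromosome 11, 51619735 to 51623714), another core protein, rose as well. In order of kidney number, Nhp2 stood at 80.4, 49.5 and 46.6 CPM in anti-G-CSFR kidneys, 59.7, 76.7 and 75.5 CPM in anti-C5 kidneys, 105, 76.7 and 80.7 CPM in isotype kidneys and 53.4, 47.4 and 59.2 CPM in sham kidneys. Isotype kidneys were all above sham kidneys, and kidneys 7, 11 and 12 reached the isotype range or came close to it. The log2 change in isotype over sham was 0.72 ± 0.202 (SE, edgeR adjusted p = 0.00853). Nop10 (chromosome 2, 112261926 to 112263269), the smallest protein of the particle and also a part of telomerase, did not. The levels of Nop10 were 129, 121 and 106 CPM in anti-G-CSFR kidneys, 103, 93.8 and 156 CPM in anti-C5 kidneys, 102, 72.7 and 78.3 CPM in isotype kidneys and 87.7, 97.6 and 95.8 CPM in sham kidneys. Isotype kidneys 5 and 6 were below all sham kidneys and kidney 4 was above them. The log2 change of Nop10 was −0.15 ± 0.182 (SE, edgeR adjusted p = 0.475). Under sample weights in limma-voom Nop10 was called lower, at −0.32 (limma-voom adjusted p = 0.0117), and under scaling by library totals alone its log2 change was 0.05 with an edgeR adjusted p of 0.816.

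The genes of the 4 abundant nucleolar proteins all rose, with a median log2 change of 1.38. Ncl (chromosome 1, 86344719 to 86359400) encodes nucleolin, an RNA-binding protein of the nucleolus. For Ncl the values were 219, 224 and 299 CPM in anti-G-CSFR kidneys, 237, 372 and 188 CPM in anti-C5 kidneys, 542, 682 and 706 CPM in isotype kidneys and 249, 223 and 263 CPM in sham kidneys. Kidney 4 was the lowest isotype kidney here and still above all the others. The log2 change of Ncl in isotype over sham was 1.39 ± 0.227 (SE, edgeR adjusted p = 0.000265). Npm1 (chromosome 11, 33152287 to 33163206) encodes nucleophosmin, a chaperone of histones and of ribosomal proteins. Npm1 measured 201, 220 and 223 CPM in anti-G-CSFR kidneys, 186, 315 and 220 CPM in anti-C5 kidneys, 498, 415 and 437 CPM in isotype kidneys and 161, 182 and 179 CPM in sham kidneys. Its log2 change was 1.37 ± 0.168 (SE, edgeR adjusted p = 4.04e-05). Every antibody kidney stood above every sham kidney in Npm1 as well, and kidney 11 was the highest of them. Ddx21, an RNA helicase of the nucleolus, and Nolc1, a chaperone of snoRNPs, rose by 1.51 and 0.88.

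**Figure D2:**
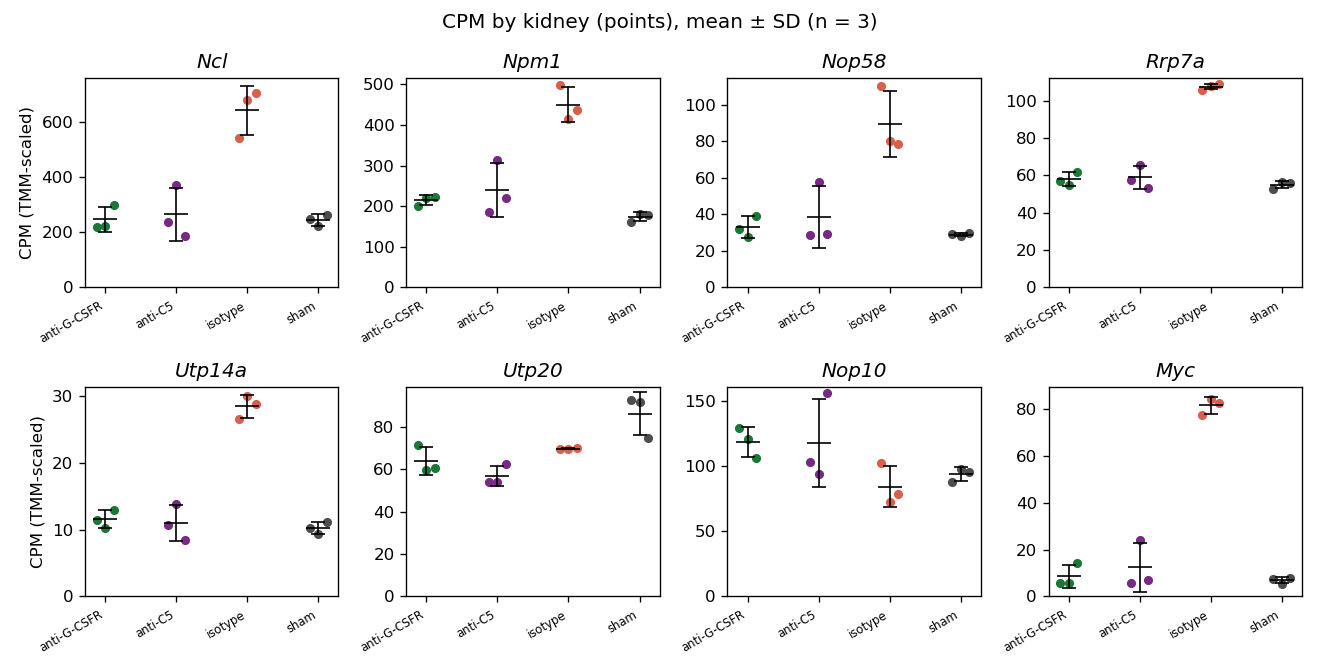
CPM (TMM-scaled, vertical axes from 0) of 7 ribosome biogenesis genes and of Myc in single kidneys (points) of the 4 groups, with mean ± SD over 3 kidneys. Isotype kidneys stand above all others in Ncl, Npm1, Nop58, Rrp7a, Utp14a and Myc, whereas in Utp20 the sham kidneys are the highest and in Nop10 the antibody means, 119 and 118 CPM, are the highest.

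Of the 22 small subunit factors 17 rose, 2 fell and 3 did not pass the test, with a median log2 change of 0.74. Rrp7a (chromosome 15, 83113433 to 83122801) had the smallest p of the 52 genes, and its promoter is printed above. In order of kidney number, Rrp7a stood at 57.1, 55 and 62 CPM in anti-G-CSFR kidneys, 57.8, 65.7 and 53.3 CPM in anti-C5 kidneys, 106, 108 and 109 CPM in isotype kidneys and 53, 56.3 and 56.2 CPM in sham kidneys. The isotype kidneys lay close together and were all above the other 9. The log2 change was 0.96 ± 0.0896 (SE, edgeR adjusted p = 7.74e-06). Utp14a (chromosome X, 48256862 to 48282453), a processome protein needed for early cuts of the precursor, was next. The levels of Utp14a were 11.4, 10.3 and 13 CPM in anti-G-CSFR kidneys, 10.7, 13.9 and 8.43 CPM in anti-C5 kidneys, 26.6, 30 and 28.8 CPM in isotype kidneys and 10.2, 9.41 and 11.2 CPM in sham kidneys. Its log2 change in isotype kidneys was 1.47 ± 0.162 (SE, edgeR adjusted p = 1.97e-05). Nob1 (chromosome 8, 107412486 to 107425051) encodes the endonuclease that makes the last cut of small subunit RNA. For Nob1 the values were 17.1, 16.3 and 16.9 CPM in anti-G-CSFR kidneys, 16.8, 18.7 and 16.5 CPM in anti-C5 kidneys, 34.8, 32.6 and 26.9 CPM in isotype kidneys and 16.6, 15.9 and 16.4 CPM in sham kidneys. Its log2 change was 0.95 ± 0.106 (SE, edgeR adjusted p = 2.16e-05).

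A further 3 small subunit genes whose promoters are printed rose in the same comparison. Utp4 (chromosome 8, 106893636 to 106923088) and Wdr43 (chromosome 17, 71615895 to 71659031) belong to the part of the processome that is first to bind the precursor. Utp4 measured 28.6, 25.8 and 31.3 CPM in anti-G-CSFR kidneys, 29.4, 39.7 and 24 CPM in anti-C5 kidneys, 74.5, 74.6 and 69.2 CPM in isotype kidneys and 29.3, 28.5 and 30.1 CPM in sham kidneys. In order of kidney number, Wdr43 stood at 31.4, 29.2 and 34 CPM in anti-G-CSFR kidneys, 30, 40.6 and 29.8 CPM in anti-C5 kidneys, 80.9, 60.3 and 56.1 CPM in isotype kidneys and 32, 30 and 34.2 CPM in sham kidneys. The log2 change of Utp4 was 1.31 ± 0.15 (SE, edgeR adjusted p = 2.46e-05). For Wdr43 it was 1.04 ± 0.154 (SE, edgeR adjusted p = 0.000144). Utp18 (chromosome 11, 93859243 to 93885766) recruits the RNA exosome to the processome in yeast. The levels of Utp18 were 28.1, 26 and 25.2 CPM in anti-G-CSFR kidneys, 23.3, 31.3 and 27 CPM in anti-C5 kidneys, 43.8, 43.1 and 39.9 CPM in isotype kidneys and 26, 25 and 27.5 CPM in sham kidneys. Its log2 change in isotype over sham was 0.69 ± 0.108 (SE, edgeR adjusted p = 0.000202). In all of these genes every isotype kidney was above the other 9 kidneys. Among the 10 genes with CACGTG 8 rose and 1 fell, with a median of 0.75, and among the 33 genes with promoters that lacked it 30 rose, with a median of 0.88. Relative to isotype kidneys, 6 of the 10 and 29 of the 33 fell under anti-G-CSFR, against 32.0% of all genes. Under anti-C5 8 of the 10 and 27 of the 33 fell, against 29.8% of all genes.

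Both genes that fell also belong to the small subunit. Utp20 (chromosome 10, 88746607 to 88826804) encodes a very large processome protein. For Utp20 the values were 71.2, 59.7 and 60.3 CPM in anti-G-CSFR kidneys, 54.1, 54.1 and 62.2 CPM in anti-C5 kidneys, 69.3, 69.5 and 69.9 CPM in isotype kidneys and 92.5, 91.4 and 74.5 CPM in sham kidneys. Each isotype kidney was below each sham kidney, and the antibody kidneys were lower still, apart from kidney 7. Isotype over sham gave −0.31 ± 0.107 (SE, edgeR adjusted p = 0.0248). The call was lost without kidney 1, 2, 5 or 6 (edgeR adjusted p = 0.095, 0.0907, 0.0603 and 0.0551) and under library totals alone (log2 change −0.11, adjusted p = 0.372), in a range of 0.00842 to 0.372 over all alternatives. Utp6 (chromosome 11, 79932321 to 79962390), a protein of repeat motifs that binds within the processome, differed by less. Utp6 measured 63.5, 60.9 and 61.3 CPM in anti-G-CSFR kidneys, 63.5, 58.9 and 59.2 CPM in anti-C5 kidneys, 60.3, 54.6 and 55.7 CPM in isotype kidneys and 67.4, 61.4 and 67.2 CPM in sham kidneys. The 3 isotype kidneys lay below the 3 sham kidneys, and the 6 antibody kidneys lay between the means of those groups. The log2 change was −0.20 ± 0.0782 (SE, edgeR adjusted p = 0.0412). Its call was lost without kidney 1, 3, 5, 6, 7 or 8 (edgeR adjusted p = 0.12, 0.119, 0.132, 0.103, 0.0544 and 0.0582), in a range of 0.00167 to 0.996 over all alternatives, and under library totals alone its log2 change was 0 to 2 decimals.

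Imp3, Rrp36 and Utp14b passed the test in none of the 6 comparisons under TMM scaling. Imp3 (chromosome 9, 56937475 to 56938398) encodes a partner of the small nucleolar RNA that starts processome assembly, and Rrp36 (chromosome 17, 46666324 to 46674352) a further processome factor. In order of kidney number, Imp3 stood at 27.2, 26.6 and 26.9 CPM in anti-G-CSFR kidneys, 29.3, 23.6 and 31.2 CPM in anti-C5 kidneys, 31.2, 27.7 and 28.9 CPM in isotype kidneys and 26.9, 29.1 and 28.2 CPM in sham kidneys. The levels of Rrp36 were 19.2, 19.1 and 17.9 CPM in anti-G-CSFR kidneys, 18.6, 18.4 and 21.5 CPM in anti-C5 kidneys, 22.3, 17.8 and 15.8 CPM in isotype kidneys and 18.3, 16.9 and 18.5 CPM in sham kidneys. The groups overlapped in Rrp36, and in Imp3 the anti-G-CSFR kidneys all lay just below the isotype kidneys. Utp14b (chromosome 1, 78658038 to 78671512) is a copy of Utp14a that lacks introns and is known for its role in sperm development. For Utp14b the values were 3.24, 2.61 and 3.4 CPM in anti-G-CSFR kidneys, 3.32, 4.48 and 2.01 CPM in anti-C5 kidneys, 3.0, 2.09 and 2.04 CPM in isotype kidneys and 3.15, 2.53 and 3.56 CPM in sham kidneys. Its exons overlap those of Acsl3 on the same strand, and its identity to Utp14a was not computed, so the origin of its reads is uncertain. With library totals alone Imp3 was called higher in isotype than in sham kidneys, at 0.26, and lower in anti-G-CSFR and in anti-C5 than in isotype kidneys, at −0.33 and −0.25 (edgeR adjusted p = 0.0281, 0.00824 and 0.0371). Under sample weights in limma-voom Utp14b was called lower in isotype than in sham kidneys, at −0.53 (limma-voom adjusted p = 0.0255).

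The 14 large subunit factors all rose, with log2 changes of 0.30 to 1.33 and a median of 0.74. Rrp1 (chromosome 10, 78400384 to 78413043) takes part in maturation of large subunit RNA. Rrp1 measured 90.7, 91 and 95.8 CPM in anti-G-CSFR kidneys, 98.3, 115 and 87.4 CPM in anti-C5 kidneys, 139, 155 and 156 CPM in isotype kidneys and 98.5, 90.3 and 110 CPM in sham kidneys. Its log2 change was 0.59 ± 0.111 (SE, edgeR adjusted p = 0.000663). Pes1 (chromosome 11, 3963975 to 3980004) encodes pescadillo, which with the products of Bop1 and Wdr12 forms a complex needed for the large subunit. In order of kidney number, Pes1 stood at 54.4, 52 and 56.1 CPM in anti-G-CSFR kidneys, 51.9, 67.7 and 53.1 CPM in anti-C5 kidneys, 99.3, 92.6 and 90.5 CPM in isotype kidneys and 57.8, 49.9 and 54.3 CPM in sham kidneys. The log2 change of Pes1 was 0.80 ± 0.108 (SE, edgeR adjusted p = 7.22e-05). Bop1 and Wdr12 rose by 0.68 and 0.81. In Rrp1 and Pes1 the isotype kidneys stood above all others, and kidney 11 was the highest of the antibody kidneys. The RNA methyltransferase genes Ftsj3, Nop2 and Rrp8 rose by 1.22, 0.80 and 0.65, and Noc2l and Noc3l, whose yeast counterparts escort precursors of the large subunit, by 1.00 and 0.52. Nop53 had the smallest rise, 0.30, and lost its call without kidney 1 or 6 (edgeR adjusted p = 0.0632 and 0.0703).

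**Figure D3:**
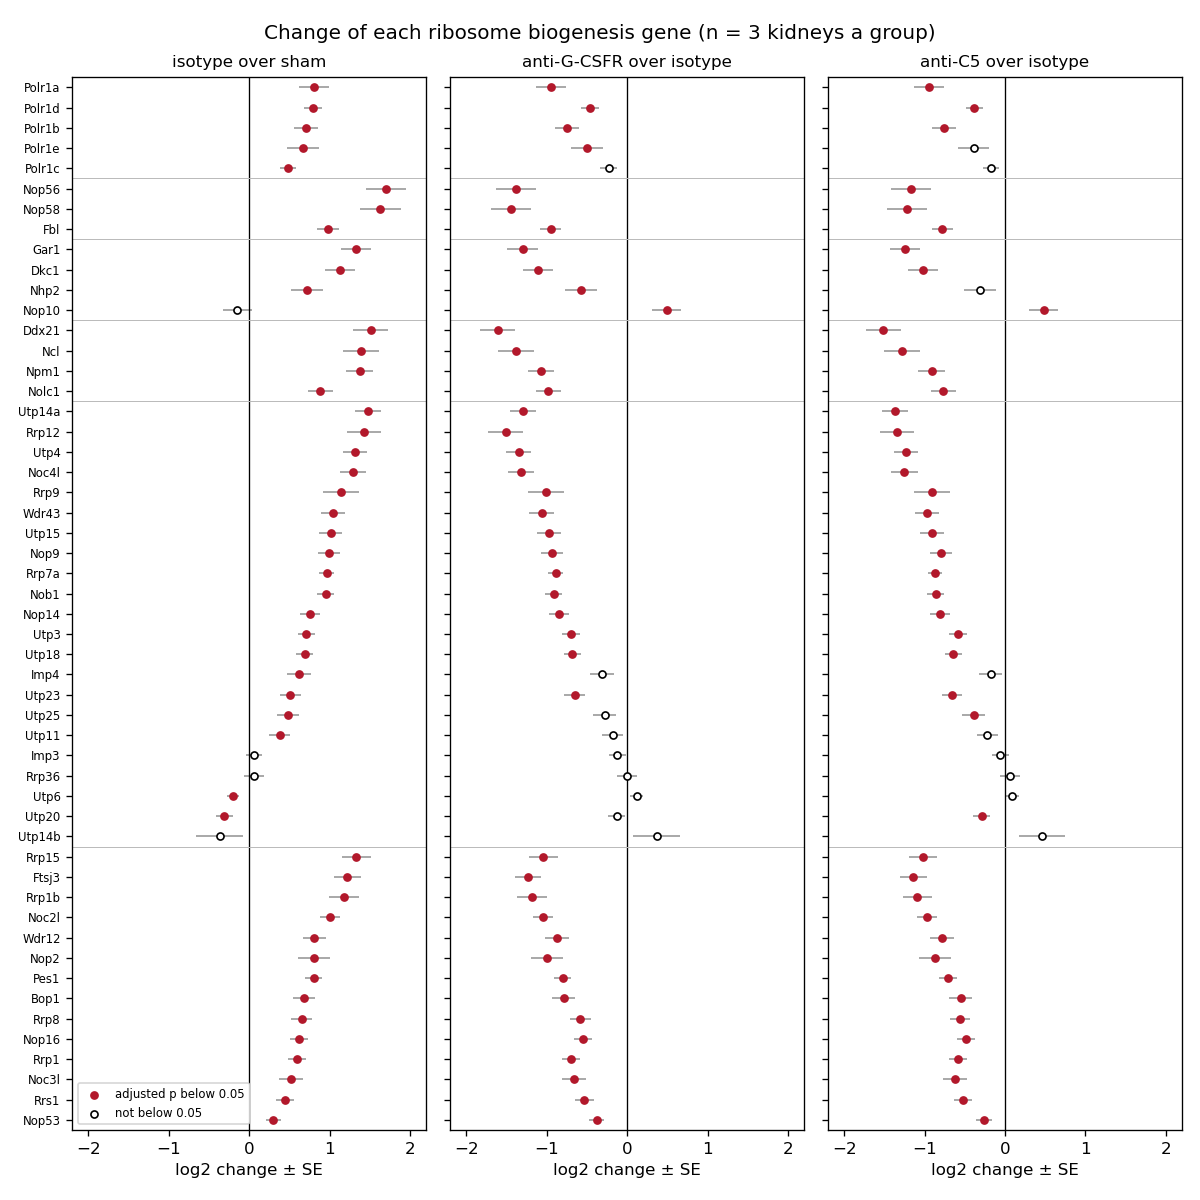
Log2 change ± SE of each of the 52 genes (rows, by role) in isotype over sham, anti-G-CSFR over isotype and anti-C5 over isotype, from 3 kidneys a group. Filled points passed an edgeR adjusted p of 0.05 and open points did not. The points lie to the right of 0 in 48 rows of the left panel and to the left of 0 in 48 rows of each of the others, whose comparisons share the isotype kidneys with it.

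Anti-G-CSFR kidneys were compared with isotype kidneys to ask how blockade of the receptor bore on the response to IRI. Of the 52 genes 42 fell (80.8%), 1 rose and 9 did not pass the test, against 32.0% of all genes that fell and 31.5% that rose. The median log2 change was −0.86, from −1.61 to 0.49, with a median of −0.02 over all genes, and 17 genes fell by over 2-fold. The 3 anti-G-CSFR kidneys lay below all 3 isotype kidneys in 43 genes, against 34.1% of all genes, and above them in 2, Nop10 and Utp6, against 33.0%. This comparison and that of anti-C5 with isotype share the isotype kidneys with isotype against sham, so a level high in those kidneys enters all of them.

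By role, 4 of 5 polymerase subunits fell, as did 3 of 3 box C/D, 3 of 4 box H/ACA, 4 of 4 nucleolar, 14 of 22 small subunit and 14 of 14 large subunit genes. Rrp7a had the smallest p again, with a log2 change of −0.89 ± 0.0895 (SE, edgeR adjusted p = 1.51e-05). Utp4 was next, at −1.35 ± 0.151 (SE, edgeR adjusted p = 2.61e-05). Nob1 followed, at −0.91 ± 0.106 (SE, edgeR adjusted p = 3.5e-05). The endonuclease gene thus stood at 16.8 ± 0.45 CPM in anti-G-CSFR kidneys and 31.4 ± 4.07 in isotype kidneys (SD, n = 3 each). Ncl gave −1.38 ± 0.227 (SE, edgeR adjusted p = 0.000297). Npm1 gave −1.07 ± 0.167 (SE, edgeR adjusted p = 0.000215). Ddx21 fell the most, by 1.61 on the log2 scale, to 54.2 ± 10.1 CPM in anti-G-CSFR kidneys, against 165.0 ± 6.57 in isotype kidneys. The box C/D pair Nop58 and Nop56 fell by 1.44 and 1.38 (edgeR adjusted p = 0.000415 and 0.000525).

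Nop10 was the exception that rose. In anti-G-CSFR over isotype its log2 change was 0.49 ± 0.182 (SE, edgeR adjusted p = 0.0319). The call was lost without kidney 5, 6, 7 or 8 (edgeR adjusted p = 0.116, 0.0957, 0.0995 and 0.0756) and under library totals alone (0.28, adjusted p = 0.134), in a range of 5.46e-05 to 0.134 over all alternatives. Nhp2 fell with a log2 change of −0.57 ± 0.201 (SE, edgeR adjusted p = 0.0258). That call was lost without kidney 4, 8 or 9 (adjusted p = 0.0987, 0.102 and 0.117), and without kidney 7, which held 80.4 CPM, the change was −0.87. Polr1e fell by 0.50 (edgeR adjusted p = 0.041), a call lost without any of kidneys 1, 2, 3, 4, 7, 8, 9 and 12. Without kidney 4 it was −0.21 (adjusted p = 0.219), and over all these cases adjusted p began at 0.0503. The Polr1e call was also lost in limma-voom without and with sample weights (limma-voom adjusted p = 0.0616 and 0.167). In a fit of the 6 compared libraries Polr1e and Nhp2 both lost their calls (edgeR adjusted p = 0.0889 and 0.0612). They did so without kidneys 9 and 11 as well (edgeR adjusted p = 0.114 and 0.118).

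The genes that did not pass were Polr1c, Imp3, Imp4, Rrp36, Utp11, Utp14b, Utp20, Utp25 and Utp6. Polr1c gave a log2 change of −0.23 (edgeR adjusted p = 0.069). Imp4, a partner of Imp3 that was singled out after its values were seen, gave −0.31 (adjusted p = 0.0819). It passed without kidney 6 (−0.41, adjusted p = 0.0405), as did Utp25 (−0.40, adjusted p = 0.0291), and Polr1c passed without kidney 5 (−0.29, adjusted p = 0.0492). Utp20 gave −0.13 ± 0.107 (SE, edgeR adjusted p = 0.319). Utp6 gave 0.12 ± 0.0783 (SE, edgeR adjusted p = 0.191). Rrp36 had a log2 change of 0.00, and below 0 under upper-quartile factors, library totals and without kidney 5, 6, 7 or 8, none of which passed the test. With library totals alone 6 of these 9 were called lower, Polr1c, Imp3, Imp4, Utp11, Utp20 and Utp25 (edgeR adjusted p of 0.00446 to 0.0194), and 48 of the 52 genes in all, against 42.3% of all genes.

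Anti-C5 kidneys were compared with isotype kidneys to ask the same of complement blockade. Again 42 genes fell (80.8%), 1 rose and 9 did not pass, against 29.8% of all genes that fell and 30.5% that rose. The median log2 change was −0.77, from −1.51 to 0.48, with −0.01 over all genes, and 13 genes fell by over 2-fold. The anti-C5 kidneys lay below the isotype kidneys without overlap in 43 genes, against 31.0% of all genes, and above them in 0, against 31.7%. By role, 3 of 5 polymerase subunits fell, with 3 of 3 box C/D, 2 of 4 box H/ACA, 4 of 4 nucleolar, 16 of 22 small subunit and 14 of 14 large subunit genes.

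Rrp7a again had the smallest p, with a log2 change of −0.87 ± 0.0895 (SE, edgeR adjusted p = 2.26e-05). Utp14a gave −1.37 ± 0.162 (SE, edgeR adjusted p = 4.68e-05). Utp4, of the first complex to bind the precursor, gave −1.23 ± 0.15 (SE, edgeR adjusted p = 5.6e-05). Ncl fell to 266 ± 95.6 CPM in anti-C5 kidneys, against 643 ± 88.8 in isotype kidneys (SD, n = 3 each). The log2 change of Ncl was −1.28 ± 0.226 (SE, edgeR adjusted p = 0.00057). The wide SD in anti-C5 kidneys comes with kidney 11, which held 372 CPM against 237 and 188. Npm1 gave −0.91 ± 0.167 (SE, edgeR adjusted p = 0.000729). Without kidney 11 the median log2 change of the 52 genes was −0.93.

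Nop10 rose here too, with a log2 change of 0.48 ± 0.182 (SE, edgeR adjusted p = 0.0372). The call was lost without kidney 3, 5, 6 or 12 (edgeR adjusted p = 0.0502, 0.132, 0.109 and 0.208). Without kidney 12, which held 156 CPM, the change was 0.22. It was also lost under library totals alone (0.29, adjusted p = 0.128) and in a fit of the 6 compared libraries (0.47, adjusted p = 0.108), in a range of 0.00141 to 0.208 over all alternatives. Utp20 fell in anti-C5 kidneys, where it had also been lower in isotype than in sham kidneys, with a log2 change of −0.29 ± 0.107 (SE, edgeR adjusted p = 0.033). That call was lost without kidney 5, 6, 10 or 11 (adjusted p = 0.0718, 0.0735, 0.0981 and 0.0841), in a range of 0.00201 to 0.113. Nop53 fell by 0.26 and Utp25 by 0.39 (edgeR adjusted p = 0.0316 and 0.0299). Nop53 lost its call without kidney 5, 6, 11 or 12 (adjusted p = 0.0838, 0.133, 0.0751 and 0.0661) and Utp25 without kidney 4, 5, 10 or 11 (0.0713, 0.112, 0.0781 and 0.0651).

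The genes that did not pass in anti-C5 kidneys were Nhp2, Polr1c, Polr1e, Imp3, Imp4, Rrp36, Utp11, Utp14b and Utp6. Nhp2 stood at 70.6 ± 9.48 CPM in anti-C5 kidneys and 87.5 ± 15.5 in isotype kidneys. Its log2 change was −0.31 ± 0.2 (SE, edgeR adjusted p = 0.197). Polr1c gave −0.17 (adjusted p = 0.16), and Polr1e gave −0.39 (adjusted p = 0.105), or −0.56 without kidney 5 (adjusted p = 0.0233) and −0.10 without kidney 4. Utp14b gave 0.46 (adjusted p = 0.19), and 0.71 without kidney 12 (adjusted p = 0.0441). Under library totals alone Nhp2, Polr1c, Polr1e, Imp3 and Utp11 were called lower (edgeR adjusted p of 0.0159 to 0.0446), and 47 of the 52 genes in all, against 38.9% of all genes.

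**Figure D4:**
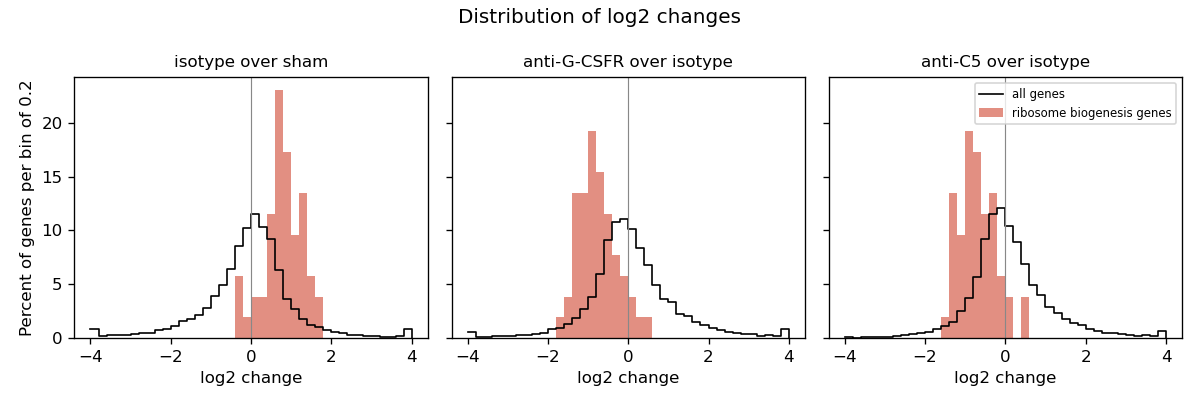
Percent of the 52 ribosome biogenesis genes (bars) and of all 13124 genes (line) by log2 change, in bins of 0.2, for isotype over sham, anti-G-CSFR over isotype and anti-C5 over isotype. Changes beyond 4 in either direction are counted in the end bins. The bars centre near 0.80, −0.86 and −0.77 and the lines near 0.

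The antibodies were compared with each other and with sham kidneys. No gene of the 52 passed in anti-G-CSFR against anti-C5 and none of all 13124 did (0.0%, edgeR), with 0 of the 52 and 207 of all genes (1.58%) at an unadjusted p below 0.05. DESeq2 and limma-voom also called 0 of the 52. The median log2 change was −0.08, from −0.26 to 0.17, and without kidney 11 the median turned to 0.08. The 95% intervals (8 residual degrees of freedom) lay within 1 log2 unit of 0 for all 52 genes. They reached down to −0.80 in Nop58, which stood at 32.9 ± 6.0 CPM in anti-G-CSFR kidneys and 38.5 ± 16.7 in anti-C5 kidneys, and up to 0.58 in Utp14b. Differences of up to these sizes between the antibodies are therefore within the intervals. In 3 genes, Bop1, Nop53 and Imp4, the anti-G-CSFR kidneys all lay below the anti-C5 kidneys, against 2.38% of all genes, and in 0 all above them, against 1.9%.

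Against sham kidneys no gene passed under either antibody (edgeR, 0.0% of all genes in both). In anti-G-CSFR against sham 3 of the 52 and 778 of all genes (5.93%) had an unadjusted p below 0.05, and in anti-C5 against sham 5 of the 52 and 1487 of all genes (11.3%). Polr1c, Polr1d and Utp20 were among these in both, joined by Npm1 and Imp4 under anti-C5, all named after their values were seen. The medians over the 52 genes were 0.01 in anti-G-CSFR over sham, or −0.05 without kidney 9, and 0.09 in anti-C5 over sham, or −0.08 without kidney 11. The 3 anti-G-CSFR kidneys all lay above the sham kidneys in 8 of the 52 and below them in 1, against 9.47% and 8.9% of all genes. For anti-C5 this held in 6 and 1, against 9.36% and 8.59%. DESeq2, whose own filter on low means left an adjusted p for 4 of the 52 genes in anti-G-CSFR against sham and for 14 in anti-C5 against sham, called 0 of the 4, and 1 of the 14, Utp20, as lower, against 0.47% of all 4466 genes with an adjusted p. Limma-voom called 0 in both, and with sample weights 1 higher, Polr1d, and 1 lower, Utp20, in anti-G-CSFR against sham, against 1.95% and 0.373% of all genes. By edgeR Utp20 had the smallest p in both. Its log2 change in anti-G-CSFR over sham was −0.43 ± 0.107 (SE, edgeR adjusted p = 0.8). In anti-C5 over sham it was −0.60 ± 0.108 (SE, edgeR adjusted p = 0.327). Polr1d stood at 86.5 ± 7.49 CPM in anti-G-CSFR kidneys, 91.4 ± 8.2 in anti-C5 kidneys and 69.1 ± 3.15 in sham kidneys (SD, n = 3 each). In anti-G-CSFR over sham its log2 change was 0.33, with a 95% interval of 0.07 to 0.58 (edgeR adjusted p = 0.807). In anti-C5 over sham it was 0.40, with a 95% interval of 0.15 to 0.65 (edgeR adjusted p = 0.371). These intervals are not adjusted for the number of genes. All 6 antibody kidneys were above all 3 sham kidneys and below all 3 isotype kidneys in Polr1d.

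Kidney by kidney, the median log2 level of the 52 genes relative to sham was 0.00, −0.08 and 0.10 in anti-G-CSFR kidneys 7 to 9 and −0.01, 0.32 and −0.05 in anti-C5 kidneys 10 to 12. It was 0.96, 0.78 and 0.72 in isotype kidneys 4 to 6 and 0.00, −0.06 and 0.04 in sham kidneys 1 to 3. Kidney 11 was the highest of the 6 antibody kidneys in 39 of the 52 genes, against 28.0% of all genes. It was above the highest sham kidney in 42, against 37.9% of all genes, and kidney 9 was in 24, against 31.1%. Kidney 11 lay below the lowest isotype kidney in 45 of the 52 genes, against 37.6% of all genes, and kidney 9 in 47, against 40.1%. Without kidneys 9 and 11 the same test gave 40 genes lower in anti-G-CSFR and 39 lower in anti-C5 than in isotype kidneys, with medians of −0.87 and −0.92.

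Kidney 4 was the highest isotype kidney in 37 of the 52 genes, against 45.0% of all genes. Among the 52 genes the difference was larger at short coding length, in a split that was not planned. Shares by coding length were not computed over all genes, so a trait of these genes cannot be told from one of all short genes. Among the 17 genes with the shortest coding length (0.192 to 1.21 kb) kidney 4 was the highest in 15 and stood a median of 0.25 log2 units above the mean of kidneys 5 and 6. Among the 17 genes of middle length it was the highest in 12, by 0.13, and among the 18 longest (2.06 to 8.37 kb) in 10, by 0.09. Without kidney 4 the medians of isotype over sham were 0.51, 0.76 and 0.79 in these 3 sets, and 0.62, 0.81 and 0.84 with it. Without kidney 4 Imp4 changed by 0.41 in place of 0.62 and Utp11 by 0.20 in place of 0.38 in isotype over sham, and Bop1 by −0.36 in place of −0.55 in anti-C5 over isotype. Utp11 then lost its call (edgeR adjusted p = 0.104), as it did without kidney 2 or 3 (adjusted p = 0.0822 and 0.0557). What set kidney 4 apart was not tested.

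Other genes of the pathway, outside the symbol rule, were counted from lists. These held transcription factors and further subunits of RNA polymerase I, and other small and large subunit factors. Of 92 measured genes 78 rose and 0 fell in isotype against sham, with a median log2 change of 0.65, 77 fell and 0 rose in anti-G-CSFR against isotype (median −0.67), and 75 fell and 1, Wdr18, rose in anti-C5 against isotype (median −0.60). Of the 11 genes of RNA polymerase I transcription 8 rose, of 35 small subunit factors 32 and of 46 large subunit factors 38. Ppan, a large subunit factor, had 11.4, 9.62 and 9.91 CPM in anti-G-CSFR kidneys, 9.66, 14.3 and 9.2 CPM in anti-C5 kidneys, 31.8, 28.4 and 28.5 CPM in isotype kidneys and 9.25, 6.68 and 8.43 CPM in sham kidneys. Isotype over sham gave a log2 change of 1.87 ± 0.174 (SE, edgeR adjusted p = 7.85e-06). Lsg1, a GTPase that acts on the large subunit in the cytoplasm, had 22.1, 22.2 and 23.4 CPM in anti-G-CSFR kidneys, 23, 23.7 and 22.8 CPM in anti-C5 kidneys, 38.5, 38.3 and 39.4 CPM in isotype kidneys and 21.6, 21.6 and 21.6 CPM in sham kidneys. Its log2 change was 0.84 ± 0.0736 (SE, edgeR adjusted p = 5.89e-06). The small subunit factor Wdr75 gave 0.93 and Tbl3 gave 0.93. In both Ppan and Lsg1 the isotype kidneys stood clear of all others.

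Rrn3 encodes the factor that makes RNA polymerase I competent to start. It had 30.1, 31.4 and 36.9 CPM in anti-G-CSFR kidneys, 32.1, 35.5 and 29.8 CPM in anti-C5 kidneys, 49.7, 48.3 and 49.5 CPM in isotype kidneys and 33, 33.6 and 34.9 CPM in sham kidneys. Isotype over sham gave a log2 change of 0.54 ± 0.0965 (SE, edgeR adjusted p = 0.000499). Ubtf, which encodes the factor that binds ribosomal DNA, did not pass, with 73.8, 76.1 and 82.7 CPM in anti-G-CSFR kidneys, 87.7, 79.2 and 72.2 CPM in anti-C5 kidneys, 90, 94.6 and 92.2 CPM in isotype kidneys and 85, 83 and 82.4 CPM in sham kidneys. Its log2 change was 0.15 ± 0.0863 (SE, edgeR adjusted p = 0.16). Taf1d, of the promoter selectivity complex, rose by 1.29. Of the polymerase subunits listed under older symbols, which were singled out after their values were seen, Twistnb and Cd3eap rose by 0.45 and 0.75 and Znrd1 gave 0.01 (edgeR adjusted p = 0.979). Of 14 measured genes of the RNA exosome, which trims the precursor, 9 rose and 2, Mtrex and C1d, fell in isotype kidneys relative to sham. Under anti-G-CSFR 9 fell and 2 rose relative to isotype, and in anti-C5 against isotype 8 fell and 3 rose. Of all genes 32.1% rose and 30.7% fell in isotype against sham. In the comparisons of anti-G-CSFR and anti-C5 with isotype 32.0% and 29.8% of all genes fell, and 31.5% and 30.5% rose. Mphosph6 and Exosc9 had the smallest p of the exosome genes, with rises of 1.31 and 0.72.

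Myc encodes a transcription factor that is known to activate many ribosome biogenesis genes. Its level was 5.68, 5.74 and 14.2 CPM in anti-G-CSFR kidneys, 5.78, 24.2 and 7.04 CPM in anti-C5 kidneys, 77.4, 84.2 and 82.5 CPM in isotype kidneys and 7.24, 5.51 and 7.88 CPM in sham kidneys. The log2 change in isotype over sham was 3.56 ± 0.494 (SE, edgeR adjusted p = 8.85e-05). In anti-G-CSFR over isotype it was −3.26 ± 0.486 (SE, edgeR adjusted p = 0.000157). In anti-C5 over isotype it was −2.72 ± 0.47 (SE, edgeR adjusted p = 0.00049). The isotype kidneys stood above all others, and kidneys 11 and 9 were the highest of the antibody kidneys, as they were in the tubule injury list. Of 9 measured genes of the MYC network 2 rose (Myc and Max) and 2 fell (Mxi1 and Mlx) in isotype against sham. Of all genes 32.1% rose and 30.7% fell, and the median log2 change of the 9 was −0.06, so the list did not move as 1 group. Max, the partner of MYC, rose by 0.44, and Mxi1, which encodes an antagonist of MYC, fell by 1.01. Whether Myc has a part in the levels of the 52 genes was not tested.

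Markers of other cells and states were read in the same groups. In isotype against sham 32.1% of all genes rose and 30.7% fell, the shares to set beside the counts below. All 10 tubule injury genes rose in isotype against sham, and their summed level was 1752 to 12169 CPM in anti-G-CSFR kidneys, 1681 to 14665 in anti-C5 kidneys, 34274 to 39133 in isotype kidneys and 1496 to 2417 in sham kidneys, with the highest antibody values in kidneys 9 and 11. All 10 proximal tubule genes fell in isotype against sham. All 9 measured neutrophil genes of 10 rose, with sums of 2.39 to 3.1 CPM in anti-G-CSFR kidneys, 8.53 to 127 in anti-C5 kidneys, 51.7 to 136 in isotype kidneys and 8.43 to 10.9 in sham kidneys, where 127 was kidney 11. Of 9 measured monocyte and macrophage genes 3 rose and 1 fell, with sums of 105 to 114 CPM in anti-G-CSFR kidneys, 122 to 188 in anti-C5 kidneys, 199 to 213 in isotype kidneys and 96.1 to 126 in sham kidneys. Fibroblast genes rose in 4 of 5, with sums of 153 to 367 CPM in anti-G-CSFR kidneys, 181 to 486 in anti-C5 kidneys, 727 to 817 in isotype kidneys and 169 to 241 in sham kidneys. Endothelial genes rose in 3 of 6 and fell in 1, podocyte genes rose in 1 and fell in 1 of 5, and distal tubule and collecting duct genes fell in 8 of 9. Relative to isotype kidneys, all 10 tubule injury and all 9 neutrophil genes fell under anti-G-CSFR, and 6 and 3 of them fell under anti-C5. Between the antibodies 0 genes of either list passed the test (edgeR), as did 0 of all 13124 genes. The anti-C5 counts include kidney 11, whose sums were 14665 and 127 CPM in these lists. Kidneys 10 and 12 had 1972 and 1681 CPM in tubule injury genes and 8.53 and 13.7 CPM in neutrophil genes. Monocyte and macrophage genes fell in 5 and rose in 1 under anti-G-CSFR, and fell in 4 and rose in 2 under anti-C5. Of all genes 32.0% and 29.8% fell in these comparisons. The part of these cells and states in the rise of the ribosome biogenesis genes was not tested.

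Cell cycle genes were read beside them. Of 12 measured genes 0 passed in isotype against sham (edgeR), with 1 at an unadjusted p below 0.05 and a median log2 change of 0.18. Their sums were 223 to 241 CPM in anti-G-CSFR kidneys, 246 to 526 in anti-C5 kidneys, 237 to 315 in isotype kidneys and 210 to 266 in sham kidneys, and the value of 526 belonged to kidney 11. Ccnb1, which encodes cyclin B1, fell in anti-G-CSFR against isotype, and Mcm6, of the replication helicase, rose in anti-C5 against isotype, where kidney 11 held 102 CPM against 60.2 and 56.3 in the other anti-C5 kidneys. Of 8 lymphocyte markers 0 were in the table.

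Reads of overlapping genes on opposite strands can be told apart only where counting used strand, and the strand setting of the counting is not given in the sources used here. Overlap was searched only with genes annotated as protein-coding, long intergenic non-coding, antisense or processed transcript, and not with other gene types. Of the 52 genes, 33 had no exon overlap with another gene of these types. Among the 33, 28 rose and 2 fell in isotype against sham, with a median log2 change of 0.71. The 18 with an overlap on the opposite strand, among them Nop56, Nhp2, Pes1, Rrp7a, Utp14a and Wdr43, all rose, with a median of 0.88. In anti-G-CSFR against isotype 25 of the 33 and 17 of the 18 fell, and in anti-C5 against isotype 26 and 16.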

How the data were processed

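RNA of 12 whole kidneys was sequenced with strand-specific kits as single-end reads, all in 1 lane per the labels. TopHat2 2.1.0, Bowtie2 2.2.5, featureCounts and the build GRCm38.p4 are named in the submitters' processing notes. For the counting, the version, strand setting and annotation are not given in these sources. The table deposited by the authors holds raw counts as whole numbers for 13124 genes by Entrez identifier, and totals ran from 13200930 to 16324215. The third-highest CPM of every gene was at least 2.01, so genes lower than this were not analysed here. Replicate kidneys differed by more than sampling noise, with chi-square values of 5.48 to 65.3 per degree of freedom. The labels do not say that the 3 kidneys of a group came from separate mice beyond their numbering. The p-values therefore set group differences against a spread estimated within groups over these 12 kidneys.

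Symbols came from the RefSeq gene table of GRCm38.p6 (13074 genes matched and 50 did not, with 0.0811% of counts), positions, exon overlap and coding length from GENCODE vM21 (GRCm38, counted from 1) and promoters from the RefSeq table. Protein sequences and identities between copies were not used here. Tests used edgeR 4.0.16 in R 4.3.3 with TMM factors, fitted robustly by quasi-likelihood to the 12 libraries together (8 residual degrees of freedom, biological coefficient of variation 16.4%). Benjamini-Hochberg adjustment ran over 13124 genes, a gene was called at an adjusted p below 0.05, and log2 changes are edgeR's. Filtering with filterByExpr left all genes in. The script was tested on simulated counts. CPM are mean ± SD over 3 kidneys. DESeq2 1.42.0 and limma 3.58.1 were alternatives.

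The members, role lists, pathway and marker lists and the rule for naming genes were chosen with earlier results of these data known. Named with values were, in each role, the 2 genes with the highest mean CPM, in each comparison with the isotype group the 3 with the smallest p and those called against the majority, the genes called in no comparison, and those whose promoter is printed. Outside the 52 these were Myc, Ubtf, Rrn3 and the 2 with the smallest p of each list. Some of these are summarised rather than printed in full. Other genes are given by counts, ranges or a log2 change.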

Additional observations from a re-analysis of the deposited data

How the results depend on the processing

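Of the calls, 44 of 48 in isotype against sham, 40 of 43 in anti-G-CSFR against isotype and 39 of 43 in anti-C5 against isotype held under every alternative run. The genes that lost a call without 1 kidney were Nop53, Utp11, Utp20 and Utp6 in the first comparison, Nhp2, Nop10 and Polr1e in the second and Nop10, Nop53, Utp20 and Utp25 in the third. Leaving out each kidney in turn gave 45 to 46 genes higher and 0 to 2 lower in isotype against sham, 0 to 1 higher and 40 to 44 lower in anti-G-CSFR against isotype, and 0 to 1 higher and 39 to 42 lower in anti-C5 against isotype. The medians of the 52 genes ran from 0.74 to 0.83, −0.88 to −0.77 and −0.93 to −0.68 in these comparisons, from −0.15 to 0.08 (without kidney 11) in anti-G-CSFR against anti-C5 and from −0.05 to 0.05 and −0.08 to 0.17 in each antibody against sham.

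The counts of genes against the majority moved by up to 2. In isotype against sham the number lower was 1 with upper-quartile factors, 0 with library totals alone, 4 with sample weights in limma-voom and 1 in a fit of the 6 compared libraries. The number higher in anti-G-CSFR against isotype was 0 with library totals and 2 with sample weights, and in anti-C5 against isotype it was 0 with library totals and in the 6 compared libraries. Library totals raised the counts of the majority to 47 higher in isotype against sham, 48 lower in anti-G-CSFR against isotype and 47 lower in anti-C5 against isotype. They moved the medians to 1.00, −1.07 and −0.94 in the 3 comparisons with the isotype group, with 64.3%, 35.9% and 37.8% of all called genes higher in place of 51.0%, 49.6% and 50.6%. Without kidneys 9 and 11 the median was −0.92 in anti-C5 against isotype and −0.07 in anti-C5 against sham. Against sham DESeq2 called 1 gene lower under anti-C5, and sample weights called 1 higher and 1 lower under anti-G-CSFR. The cause of these shifts was not tested.

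Directions that turned were those of genes near 0. In anti-C5 against isotype Imp3 gave 0.03 with sample weights, 0.06 without kidneys 9 and 11 and up to 0.05 without 1 kidney (from −0.15), Imp4 −0.28 to 0.03 without 1 kidney, and Rrp36 −0.12 with library totals and −0.04 to 0.21 without 1 kidney. In anti-G-CSFR against isotype Rrp36 gave −0.01 with upper-quartile factors, −0.21 with library totals and −0.10 to 0.16 without 1 kidney. In isotype against sham it gave −0.05 with sample weights and −0.09 to 0.17 without 1 kidney, and Nop10 gave 0.05 with library totals. Utp6 gave −0.09 with library totals under both antibodies.

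No paired analysis was possible because the kidneys are numbered 1 to 12 and no number occurs in 2 groups. Each of the 52 genes had at least 26 counts in every kidney.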
